A study of Mus musculus with 2 samples.

Results

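The heat shock proteins and DNAJ cochaperones of the adult mouse mammary epithelium were taken as every gene whose symbol starts with Hspa, Hspb, Hspd, Hspe, Hsph, Hsp90 or Dnaj, which gave 74 of the 27998 genes counted. They comprised 11 genes of the HSP70 family, 3 of the HSP110 family, 3 of the HSP90 family, the 2 mitochondrial chaperonin genes, 7 small heat shock protein genes, 4 DNAJA, 13 DNAJB and 28 DNAJC genes. The remaining 3, Hspbap1, Hspbp1 and Hspb11, share only the prefix: Hspbp1 encodes a nucleotide exchange factor of HSP70, and Hspb11 a component of the cilium transport machinery. Counts came from 2 libraries of single cells from adult FVB/NJ mice, prepared with the 10X Genomics 3′ kit. The sorted basal library was made from cells of the CD29hi CD24+ gate and the total epithelium library from all CD24+ cells, both after removal of blood and endothelial cells by antibody and of dead cells by dye. The mice were untreated, the series as a whole used 8 of them, and cells of several mice were pooled before capture. There was 1 library per group, so no difference below has a replicate check, no test was run, and intervals cover counting error only.

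Within the total epithelium library, cells with 10 or more counts of Krt5, Krt14 and Acta2 together were called basal (1280 cells), cells with 10 or more of Prlr, Stc2 and Gpx3 mature luminal (ML, 1133 cells), and other cells with 3 or more of Krt8, Krt18 and Krt19 luminal progenitor (LP, 766 cells). The 26 cells that met both the basal and the ML threshold were left out, and 97 cells met none. Markers that took no part in the rule followed the names: the other basal markers, such as Trp63 and Oxtr, summed to 12572 counts per 1000000 counts of the group (CPM) in basal cells, 94.0 in LP cells and 33.9 in ML cells, and the LP markers, such as Kit, Elf5 and Csn3, to 2242, 18563 and 1833 CPM. The fibroblast list of 6 genes summed to 1419 CPM in ML cells, 1281 of them from Dcn, against 358 in basal, 83.4 in LP and 605 in sorted basal cells; all 6 genes had counts except Lum in LP cells. Without cells of 5 or more fibroblast counts, 8 of 56 members were higher and 16 lower in ML than in basal cells, against 29.6% and 29.4% of all genes. These counts are close to the values below. The 4 luminal markers summed to 3863, 32267, 38354 and 2512 CPM in basal, LP, ML and sorted basal cells. The 8 ML markers summed to 177, 1199, 24013 and 181 CPM. These lists include Krt8, Krt18 and Krt19, and Prlr, Stc2 and Gpx3, so the rule that set the classes partly fixed these sums. The ML markers outside the rule summed to 73.5, 756, 7548.5 and 34.6 CPM in the same order. The endothelial, immune, pericyte, red cell and Schwann cell lists lay between 0 and 142 CPM in each group, and Ptprc, which marks blood cells, was at 0 counts in all 4. The sorted cells were shallow, with a median of 487 counts per cell against 1820 in basal cells, 2484 in the LP class and 3403 in the ML class. Ribosomal protein genes took 4.50% of the counts of the sorted library and 8.97% of those of the unsorted basal cells, and the libraries shared 28 cell barcodes.

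HSP70 proteins bind unfolded stretches of other proteins and release them in a cycle driven by ATP. DNAJ proteins deliver clients to HSP70 and stimulate its ATP hydrolysis, HSP110 proteins exchange its nucleotide, HSP90 proteins finish the folding of kinases and steroid receptors, and small heat shock proteins hold clients without ATP. Hspa8, Hsp90ab1 and Hspd1 are expressed constitutively, while Hspa1a, Hspa1b, Hsph1 and Dnajb1 are classical targets of the heat shock factor HSF1. In the mammary gland the basal layer is contractile and expresses smooth muscle genes, and several small heat shock proteins are known from muscle. Dissociation of a tissue into single cells is itself known to induce heat shock genes together with immediate-early genes such as Fos and Egr1, so the share of 35 immediate-early genes is given beside the results.

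Members made up 2.13% of all counts in basal cells, 1.33% in LP cells, 1.23% in ML cells and 3.12% in the sorted basal library. Immediate-early genes made up 5.31%, 4.21%, 3.70% and 7.53% in the same order, so both shares were ordered alike over the 4 groups, and the part of one in the other was not tested. Of the 74 members, 56 reached 10 CPM in at least 1 group, 43 did so in every group and 17 reached 100 CPM in every group. The other 18 stayed under 10 CPM in every group, and 6 of them (Dnajb7, Dnajb8, Dnajc5b, Dnajc5g, Hspb3 and Hspb9) had no count in any of the 4. Hspb2 was at 5.28 CPM in basal cells and Hspb7 at 5.63 CPM in the sorted library, their highest values among these groups. Since the kit counts the 3′ end of a transcript, levels were not divided by gene length, and they are compared between genes only as shares of the members' counts. Hspa8, the constitutive cytosolic HSP70, held 27.3% of the members' counts in basal cells, 31.4% in LP, 20.1% in ML and 31.0% in sorted basal cells. The 5 leading members (Hspa8, Hspa5, Hsp90ab1, Dnaja1 and either Dnajb1 or Hspa1a) held 62.2%, 65.6%, 52.4% and 70.3%.

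**Figure D1:**
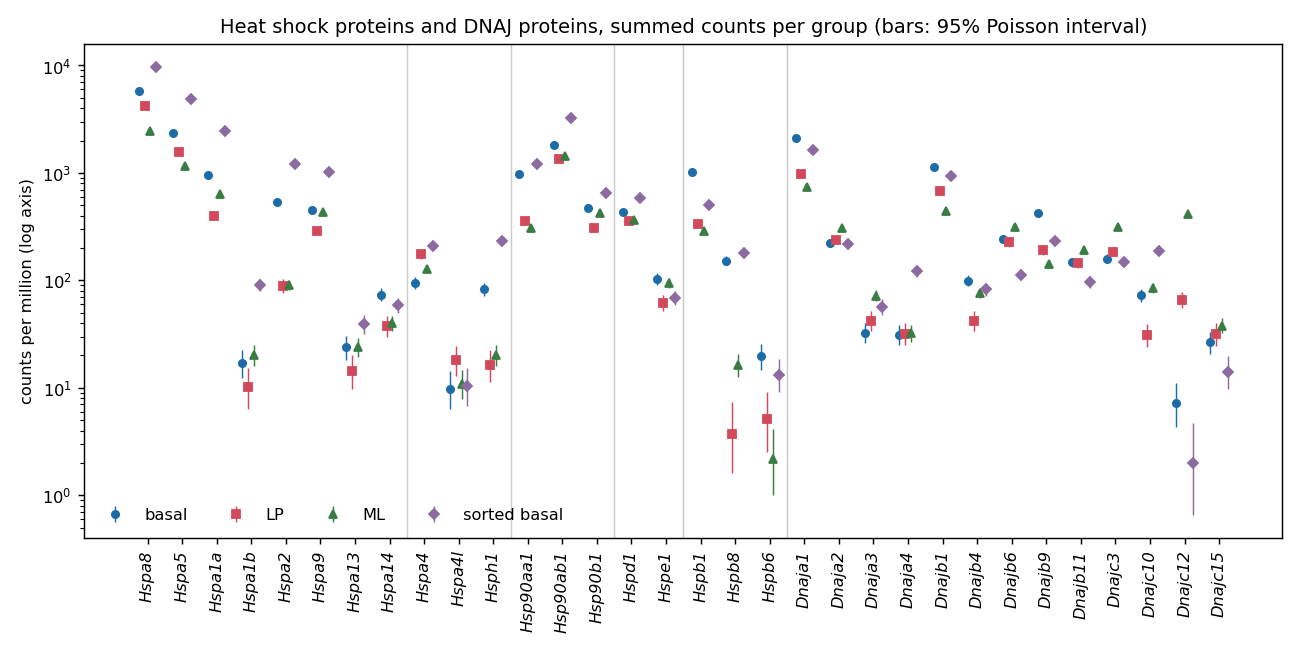
Summed CPM of 32 members (log axis) in basal, LP and ML cells of the total epithelium library and in the sorted basal library, with bars for the exact 95% Poisson interval and vertical lines between the HSP70, HSP110, HSP90, chaperonin, small heat shock protein and DNAJ genes. Hspb8, Hspb6, Hspa2 and Hsph1 were highest in the basal groups, Dnajc12 was highest in ML cells, and most HSP70 genes were highest in the sorted library.

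Against the unsorted basal cells, LP cells had 24 of 54 measured members lower by 1.5-fold or more and 3 higher. Over all 8160 genes measured in that comparison 34.1% were lower and 19.3% higher by as much, and the median log2 ratio was -0.46 over the members and -0.22 over all genes. ML cells had 15 of 55 measured members lower and 9 higher than basal cells, against 29.6% and 29.5% of 8359 genes, with medians of 0.04 and 0.02. The count of lower members in ML cells was therefore near that of all genes, while the higher count was below it. Both comparisons use the same basal cells, so their values are given side by side and not as independent evidence of each other. The 40 genes listed as cochaperones and regulators, which start with none of the prefixes, include the BAG proteins, Stip1 and the cytosolic chaperonin subunits. Cryab, Hyou1 and Trap1 are on this list by symbol alone, so the family sums and counts leave them out. The list had 15 of 37 lower and 4 higher in LP cells and 9 of 36 lower and 6 higher in ML cells. Among the lower ones in both were Bag3, the partner of Hspb8, the HSP90 activator Ahsa1 and Hsf1 itself.

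**Figure D2:**
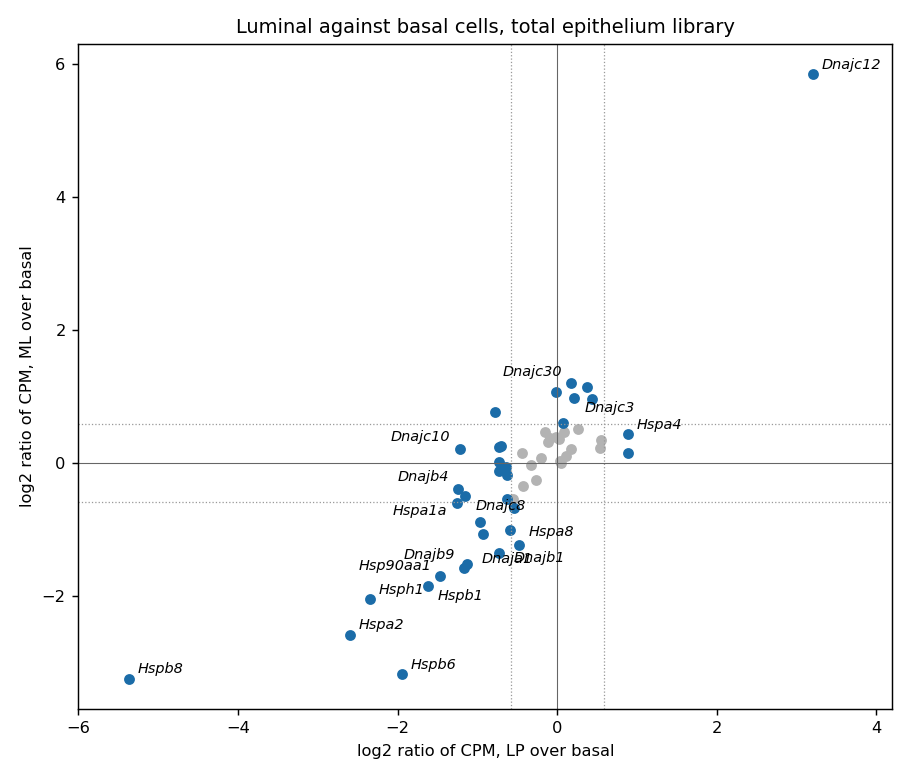
Each point is a member measured in both comparisons, placed by its log2 ratio of CPM in LP over basal cells (x axis) and in ML over basal cells (y axis). Dotted lines mark 1.5-fold, and grey points stay within it on both axes. Hspb8, Hspb6, Hspa2 and Hsph1 lie at the lower left, and Dnajc12 lies at 9.18-fold and 57.5-fold at the upper right.

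Of the subfamily sums, that of the small heat shock proteins differed most between the layers of the total epithelium. It was 1207 CPM in basal cells, 344 in the LP class, 305 in the ML class and 698 in the sorted library. Most of each sum came from Hspb1, given below. Hspb8 (chr5:116408491-116422864, RefSeq, GRCm38.p6), which works with Bag3 in the clearance of damaged filament proteins, was at 153 CPM in basal cells (interval 138 to 168), 3.71 in LP cells (1.60 to 7.30) and 16.2 in ML cells (12.6 to 20.6). In the sorted library it was at 180 CPM (163 to 197), above both luminal classes as well. Hspb8 was thus 41.2-fold higher in basal than in LP cells (20.7 to 96.1, on 8 counts in LP cells) and 9.42-fold higher than in ML cells (7.26 to 12.4). A count of Hspb8 was found in 21.3% of basal cells, with an exact binomial 95% interval of 19.04 to 23.6. The share was 0.914% for LP and 4.15% for ML cells. With every cell thinned to 800 counts the shares were 10.3%, 0.323% and 1.22%. Hspb6, a small heat shock protein of smooth and striated muscle, was at 19.6 CPM in basal cells, 5.10 in LP cells, 2.18 in ML cells and 13.3 in the sorted library, on 52, 11, 9 and 33 counts. Hspb1, the small heat shock protein with the most counts and a regulator of actin filaments, was at 1026 CPM in basal, 335 in LP, 286 in ML and 498 in sorted basal cells. The basal level of Hspb1 was 3.07-fold that of LP cells (2.82 to 3.33) and 3.59-fold that of ML cells (3.35 to 3.84).

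Hspa2, an HSP70 best known from the testis, was at 539 CPM in basal cells (511 to 568), 89.0 in LP cells (76.8 to 102) and 90.5 in ML cells (81.6 to 100.1). It was 6.06-fold (5.21 to 7.08) and 5.96-fold (5.31 to 6.69) higher in basal than in LP and ML cells, and its LP and ML intervals overlapped. Hsph1, the stress-inducible HSP110, was at 82.6 CPM in basal cells, 16.2 in the LP class and 20.1 in the ML class, 5.09-fold (3.55 to 7.50) and 4.11-fold (3.18 to 5.36) higher in basal cells. The other HSP110 genes ran the other way in LP cells: Hspa4 was at 176 CPM in LP cells against 95.03 in basal and 128 in ML cells, and Hspa4l at 18.1 against 9.81 and 10.9. Hspa4 was 1.85-fold higher in LP than in basal cells (1.57 to 2.18), and Hspa4l 1.84-fold (1.09 to 3.15, on 39 and 26 counts). Hsp90aa1, the inducible cytosolic HSP90, was at 981 CPM in basal cells, 355 in the LP class and 304 in the ML class, 2.76-fold (2.55 to 3.0) and 3.23-fold (3.02 to 3.46) higher in basal cells. Its constitutive relative Hsp90ab1 stayed within 1.5-fold, at 1827, 1358 and 1435 CPM. Hspa8 was at 5817 CPM in basal cells, 4189 in the LP class and 2475 in the ML class, 2.35-fold higher in basal than in ML cells (2.29 to 2.41).

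Among the type I DNAJ proteins, which carry clients to HSP70 in the cytosol, Dnaja1 was at 2134 CPM in basal cells, 973 in the LP class and 744 in the ML class, whereas Dnaja2 was at 223, 236 and 308 CPM and Dnaja4 at 31.3, 32.0 and 32.2. Dnaja1 was 2.19-fold (2.08 to 2.31) and 2.87-fold (2.75 to 3.0) higher in basal cells. Dnajb1, the main partner of Hspa1a in the heat shock response, was at 1125, 681 and 443 CPM, so that it was ordered basal, LP, ML with intervals that did not overlap. Dnajb4 was at 99.6, 42.2 and 76.5 CPM, lowest in LP cells, and Dnajb6, which suppresses protein aggregation, at 241, 226 and 315 CPM. The endoplasmic reticulum members did not share an order. Hspa5 (BiP) was at 2347, 1559 and 1169 CPM and its DNAJ partner Dnajb9 at 425, 190 and 142, both highest in basal cells, while Hsp90b1 was at 475, 308 and 420, Dnajb11 at 147, 146 and 192, Dnajc10 at 72.4, 31.0 and 84.2 and Dnajc3 at 160, 184 and 315 CPM. Of the mitochondrial members, Hspa9 was at 448, 286 and 428 CPM, Hspd1 at 430, 359 and 363, Hspe1 at 103, 62.1 and 94.6, Dnaja3 at 32.4, 42.2 and 71.9 and Dnajc15 at 26.4, 31.5 and 37.8. Hspa13, an HSP70 of the microsomes, was at 23.8, 14.4 and 24.0 CPM, and the ribosome-bound Hspa14 at 73.5, 37.5 and 39.9.

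Dnajc12 (chr10:63382443-63408840), a DNAJ protein known as the cochaperone of the aromatic amino acid hydroxylases, stood apart from the rest of the family. It was at 7.17 CPM in basal cells (4.31 to 11.2, on 19 counts), 65.8 in LP cells (55.4 to 77.5), 412 in ML cells (392 to 432) and 2.01 in the sorted basal library (0.652 to 4.69, on 5 counts). The ML level was 57.5-fold that of basal cells (36.7 to 95.7) and 6.26-fold that of LP cells (5.27 to 7.48), and 65.1% of ML cells held a count (62.3 to 67.9) against 11.8% of LP and 0.938% of basal cells. Within the LP cells the level went with the ML genes of the rule. The 650 LP cells with under 3 counts of Prlr, Stc2 and Gpx3 were at 20.5 CPM (14.5 to 28.1), and the 116 with 3 to 9 counts at 345 CPM (282 to 417). With the first of these alone as LP cells, Dnajc12 was 2.86-fold higher in LP than in basal cells and 20.1-fold higher in ML than in LP cells, so the level called LP depends on where the classes are divided. The further members higher in ML than in basal cells were Hspbap1 (4.53 and 16.7 CPM, 3.69-fold, 1.98 to 7.48), Dnajc30 (26.8 and 61.5, 2.30-fold), Dnaja3 (2.22-fold), Dnajc4 (31.3 and 65.6, 2.10-fold) and 4 others between 1.52-fold and 1.98-fold. Hspbap1 encodes a protein that binds Hspb1, and Dnajc30, Dnaja3 and Dnajc4 encode mitochondrial or membrane DNAJ proteins.

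Between the luminal classes, ML cells had 18 of 52 measured members higher by 1.5-fold or more and 3 lower, against 33.1% higher and 16.5% lower over 7711 genes. Under median-of-ratios scaling, which shifts this comparison by 0.22 on the log2 scale, 10 of 52 members were higher and 7 lower. Over all 7711 genes these shares were 23.0% and 21.9%, and the higher share of all called genes moved from 66.8% to 51.3%. After Dnajc12, the largest ratios belonged to Hspb8 (4.37, 2.10 to 10.6), Hspbap1 (4.0, 1.99 to 9.13), Dnajc17 (2.93, 1.76 to 5.14) and Dnajc10 (2.71, 2.08 to 3.58). Dnajc17, a splicing-associated nuclear DNAJ protein, was at 8.34 CPM in LP and 24.4 in ML cells. The 3 lower members were Hspa8 (1.69-fold, 1.65 to 1.74), Hspa4l (1.66-fold, 1.05 to 2.61) and Dnajb1 (1.54-fold, 1.43 to 1.65). The cochaperones and regulators had 6 of 37 higher in ML than in LP cells, among them Bag2 and Stip1, and 3 lower, which were Serpinh1, the collagen chaperone of the endoplasmic reticulum, Cryab and Fkbp5.

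Hspa1a and Hspa1b, the classical stress-inducible HSP70 genes, lie near each other on chromosome 17, at chr17:34969359-34972156 and chr17:34956429-34959238 (RefSeq, GRCm38.p6). Of the 2893 stretches of 75 bases in the Hspa1a transcript of the GENCODE annotation, 1524 also occur in that of Hspa1b, but none of the 426 in the last 500 bases do. Reads from the shared stretch cannot be assigned to either gene, so the values of both are uncertain to that extent. Hspa1a was at 962 CPM in basal cells (925 to 1000.1), 401 in LP cells (375 to 429), 637 in ML cells (613 to 662) and 2432 in the sorted library (2371 to 2494). Hspa1b was at 17.0 CPM (12.4 to 22.7), 10.2 (6.39 to 15.4), 20.1 (16 to 24.9) and 90.4 (79.0 to 103). Both were highest in the sorted library and lowest in LP cells, and for Hspa1b the intervals of basal, LP and ML cells overlapped between neighbours. Hspa1a also had the largest variance over mean between cells in each of the 4 groups, among members with enough counts for it.

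With each cell thinned to 800 counts in the total epithelium library or 300 in the sorted library, the variance of Hspa1a between cells was 3.62 times its mean in basal, 8.27 times in LP, 2.84 times in ML and 2.83 times in sorted basal cells, where independent sampling from equal cells gives about 1. Hspa8, at a higher level, was at 1.44, 1.88, 1.57 and 1.48. Hsp90ab1 was at 1.21, 1.14, 1.11 and 1.95, and Dnajb1 at 1.74, 1.91, 2.05 and 1.56. The excess of this measure over 1 grows with the thinning depth. The sorted values, at 300 counts, therefore cannot be set against those of the other groups, at 800. In LP cells, 530 of 766 had no count of Hspa1a, and the 39 cells with the most held 526 of its 866 counts (60.7%). The same fraction of cells held 31.5% in basal, 43.0% in ML and 35.1% in sorted basal cells, and for Hspa8 in LP cells it held 13.8%. In sorted basal cells the fraction was larger for Hspb1 (53.4%) and Dnajb1 (38.3%) than for Hspa1a. The level of Hspa1a in LP cells was therefore carried by few of them. These shares include the unequal depth of the cells, which the thinned values do not.

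**Figure D3:**
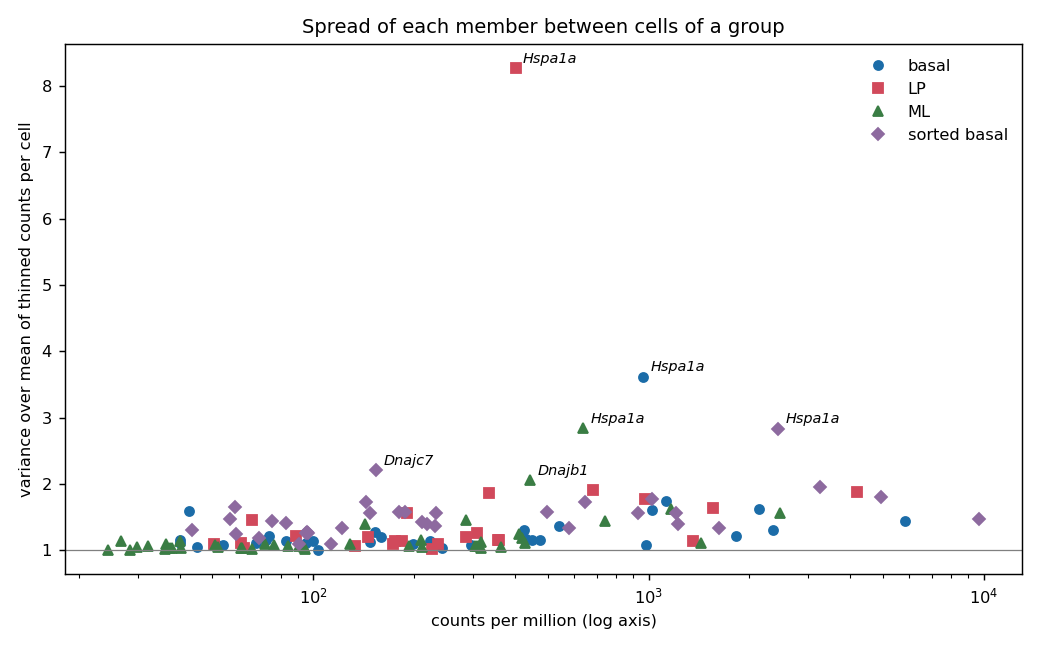
Variance over mean of the counts per cell after thinning (y axis) against the level in CPM (x axis, log) for each member with enough counts, in basal, LP, ML and sorted basal cells. The horizontal line is at 1. Hspa1a lies highest in each group, at 8.27 in LP cells.

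Promoter windows of 300 bases, 250 before to 50 after the start site (RefSeq, build GRCm38.p6), were found for 60 of the 74 members and searched for the heat shock element, the binding motif of HSF1. Hspa8, Hspa9, Hsp90aa1 and Hsp90ab1 were among the members without a window and were not searched. A pair of units was read as GAANNTTC or TTCNNGAA, each of which is its own reverse complement, and 3 units as GAANNTTCNNGAA or TTCNNGAANNTTC, which contain both pairs. A pair was present in 18 of the members' 77 windows (23.4%) and in 15.1% of all 32851 windows, and 3 units in 6 (7.79%) and in 0.603%. Counted by gene, these were 16 and 4 of the 60 members. The 4 members were Hspd1 and Hspe1, whose windows overlap by 285 bases on opposite strands, Hsph1 and Dnajb6. The windows of Hsph1 also overlap each other, as do those of Dnajb6, so the 6 windows with 3 units are not separate stretches. The windows of the inducible Hspa1a and Hspa1b, of Hsph1 and Hspb8, which were highest in the basal groups, and of Hspd1 are shown on the gene's own strand with every pair in capitals, at chr17:34972107-34972406, chr17:34959189-34959488, chr5:149636287-149636586, chr5:116422815-116423114 and chr1:55087883-55088182, all on the minus strand. Where RefSeq gives a gene several start sites, the window with the most pairs is shown.
Hspa1a: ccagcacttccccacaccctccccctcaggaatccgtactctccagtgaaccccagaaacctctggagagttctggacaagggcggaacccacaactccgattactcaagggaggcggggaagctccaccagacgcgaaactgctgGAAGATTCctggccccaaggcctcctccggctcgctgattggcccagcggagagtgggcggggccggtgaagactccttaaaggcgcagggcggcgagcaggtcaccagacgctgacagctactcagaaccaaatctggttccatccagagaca
Hspa1b: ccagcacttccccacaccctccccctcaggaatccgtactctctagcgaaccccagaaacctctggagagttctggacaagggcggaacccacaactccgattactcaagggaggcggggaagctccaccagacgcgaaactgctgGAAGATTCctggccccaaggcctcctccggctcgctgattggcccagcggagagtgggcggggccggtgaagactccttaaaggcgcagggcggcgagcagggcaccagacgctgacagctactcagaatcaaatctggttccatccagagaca
Hsph1: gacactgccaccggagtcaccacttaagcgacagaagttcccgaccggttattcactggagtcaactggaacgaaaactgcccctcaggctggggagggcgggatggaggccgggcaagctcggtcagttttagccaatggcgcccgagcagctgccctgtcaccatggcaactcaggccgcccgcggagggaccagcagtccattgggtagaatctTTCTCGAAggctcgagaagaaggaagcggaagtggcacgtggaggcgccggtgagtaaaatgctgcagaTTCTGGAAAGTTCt
Hspb8: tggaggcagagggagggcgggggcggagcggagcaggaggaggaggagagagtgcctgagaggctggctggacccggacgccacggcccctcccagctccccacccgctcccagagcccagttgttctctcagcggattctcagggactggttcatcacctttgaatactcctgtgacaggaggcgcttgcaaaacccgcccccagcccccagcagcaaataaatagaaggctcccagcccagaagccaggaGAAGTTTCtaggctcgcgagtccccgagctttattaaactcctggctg
Hspd1: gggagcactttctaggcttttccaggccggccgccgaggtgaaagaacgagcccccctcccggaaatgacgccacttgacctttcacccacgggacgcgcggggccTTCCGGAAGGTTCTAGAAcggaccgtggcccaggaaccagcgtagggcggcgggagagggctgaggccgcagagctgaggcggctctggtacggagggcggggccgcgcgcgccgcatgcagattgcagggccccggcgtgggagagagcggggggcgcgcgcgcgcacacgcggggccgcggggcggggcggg
Hspa1a and Hspa1b each held 1 pair, GAAGATTC, in the same place of nearly identical windows. Hsph1 held 3 pairs, 2 of them joined in TTCTGGAAAGTTC at the end of the window, Hspb8 held 1 and Hspd1 held 3 joined in 1 run. Hspb1 and Dnaja4 held 2 pairs each, and the windows of Dnajb1 and Hspa2 held none of these letters. A match is a description of the sequence and was not tied to a level.

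The sorted basal library and the unsorted basal cells come from separate captures that differ in gate and depth, and what these contribute cannot be told apart. Of 54 measured members, 18 were higher by 1.5-fold or more in the sorted library and 14 lower, where over all 8692 genes 46.6% were higher and 23.5% lower. The median log2 ratio was 0.12 over members and 0.49 over all genes. Median-of-ratios scaling shifts this comparison by 0.34 on the log2 scale. It then gave 12 of 54 members higher and 23 lower, against 33.3% and 30.0% of all 8692 genes. The higher share of all called genes moved from 66.5% to 52.6%. Hspa8, Hspa13, Hsp90ab1, Dnaja3, Dnajb2 and Dnajc13, higher by under 1.9-fold, came within 1.5-fold under that scaling. Dnaja1, Dnajb1, Dnajb4, Dnajc7, Dnajc30, Hspa14, Hspb6, Hspbp1 and Hspe1, within 1.5-fold before, became lower by 1.5-fold or more. No member past 1.5-fold changed direction.

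Of the 8 HSP70 genes measured, 7 were higher and none lower in the sorted library, beside 46.6% of all genes higher. The count includes Hspa8 and Hspa13, which came within 1.5-fold under the other scaling. Hspa14 stood at 0.798 of its unsorted level, and was lower by 1.5-fold or more under that scaling. The family sum was 19456 CPM in the sorted library and 10229 in unsorted basal cells. Hspa1b was 5.33-fold higher (3.85 to 7.51), Hspa1a 2.53-fold (2.41 to 2.65), Hspa9 2.29-fold (447.6 and 1027 CPM), Hspa2 2.24-fold (1207 CPM when sorted), Hspa5 2.10-fold (4925 CPM), Hspa13 1.66-fold and Hspa8 1.66-fold (9673 CPM). Hsph1 was 2.81-fold higher (232 CPM, 2.40 to 3.30) and Hspa4 2.22-fold (211 CPM), while Hspa4l stood at 10.45 CPM against 9.81. Of the DNAJ genes, Dnaja4 was 3.89-fold higher (31.3 and 122 CPM, 3.04 to 5.02) and Dnajc10 2.59-fold (72.4 and 187 CPM). Hsp90ab1 was 1.78-fold higher, at 3244 CPM, and Hsp90aa1 (1220 CPM), Hsp90b1 (647 CPM), Hspd1 (579 CPM) and Hspb8 stayed within 1.5-fold. Thus the inducible HSP70 and HSP110 genes were higher in the sorted library, and so were Hspa9, Hspa2, Hspa5 and Hspa4. Dnajb1, at 933 CPM against 1125, and Dnaja1, at 1625 against 2134, were not. Also within 1.5-fold, before the other scaling, were Dnaja2 (218 CPM when sorted), Dnajb4 (82.8), Dnajc3 (148), Hspe1 (68.7) and Hspa14 (58.7). Dnaja3 was at 56.3 CPM and 1.74-fold higher.

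Hspb1 ran against most HSP70 genes, at 1026 CPM in unsorted and 498 in sorted basal cells, 2.06-fold lower (1.93 to 2.21). The largest ratios downwards were those of Dnajc24 (4.69-fold, 2.50 to 9.58, on 12 counts when sorted), Dnajc17 (3.57-fold, 1.74 to 8.03, on 10 counts), Hspb11 (2.76-fold), Dnajc9 (2.72-fold, 1.87 to 4.02) and Dnajb6 (2.14-fold, 1.86 to 2.47). Dnajc24 takes part in the diphthamide modification of a translation factor, and Dnajc9 is a histone chaperone of dividing cells. Dnajb9 was 1.84-fold lower, at 231 CPM, Dnajc15 1.88-fold lower, at 14.1 CPM, and Dnajb11 1.53-fold lower, at 96.0 CPM. The median length of the longest annotated transcript was 3184 bases over the 18 members that were higher and 2046 over the 14 that were lower, with 2872 over the 22 within 1.5-fold. Ribosomal protein genes were also lower in the sorted library, as given above, and immediate-early genes had 17 of 34 higher, close to the 46.6% of all genes, and 2 lower. Their part in the members' difference was not tested. The cochaperones and regulators had 6 of 36 higher and 9 lower, the higher ones including Bag3 and Hyou1. With every cell thinned to 300 counts, Hspa1a was found in 37.8% of sorted and 22.0% of unsorted basal cells, and without thinning in 46.5% and 63.9%; cells under 300 counts, 882 in the sorted library, are left out of the thinned shares.

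**Figure D4:**
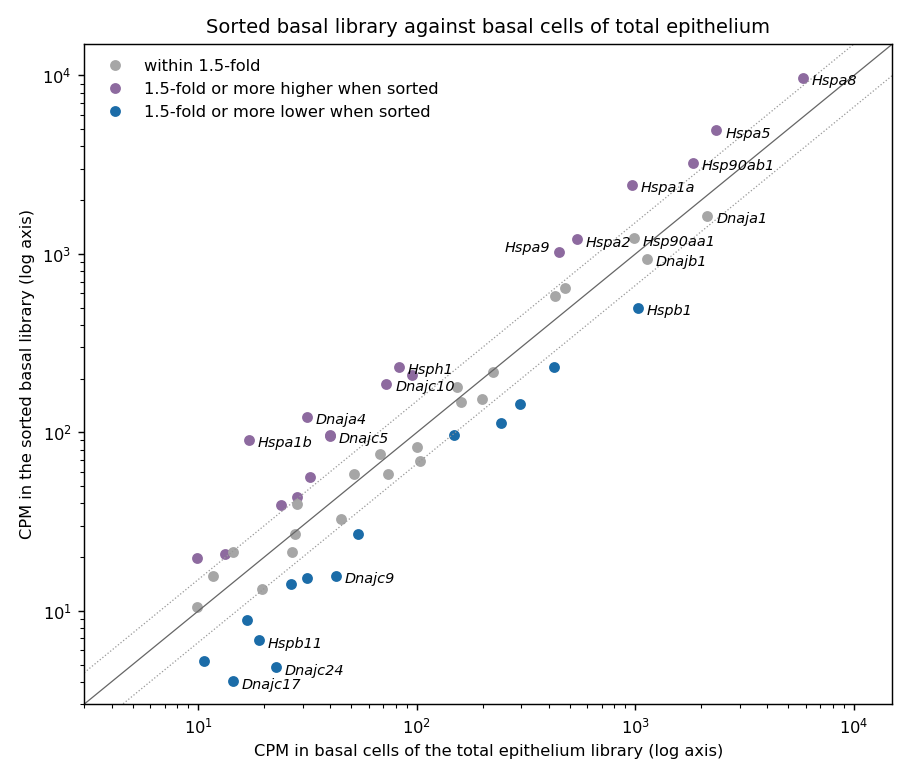
Level of each measured member in the sorted basal library (y axis) against the basal cells of the total epithelium library (x axis), both in CPM on log axes, with the line of equality and dotted lines at 1.5-fold. Most HSP70 genes lie above the line and Hspb1 lies below it, at 498 against 1026 CPM.

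To set the members beside the immediate-early genes inside 1 class and 1 library, the cells of each group were ranked by the share of their counts from the 35 immediate-early genes and divided into 3 equal parts. The median share ran from 3.06% in the bottom to 8.10% in the top part of basal cells, from 1.94% to 7.21% in LP, from 1.43% to 6.12% in ML and from 4.11% to 11.3% in sorted basal cells. The top part was shallower than the bottom in basal (median 1629 against 2015 counts), LP (2008 against 2750) and sorted basal cells (451.5 against 521), and deeper in ML cells (3463 against 3235). For CPM in these parts, the totals left out the immediate-early counts, which raises the top part most. Dnaja1 in basal cells was thus at 2275, 2252 and 2228 CPM from bottom to top, against 2134 in the whole group. Calls just past the limit, such as Hspa2 in basal cells (1.525-fold), were not rechecked with all counts in the totals. Members higher by 1.5-fold or more in the top than in the bottom part numbered 10 of 54 in basal, 12 of 50 in LP, 7 of 53 in ML and 14 of 52 in sorted basal cells, against 19.1%, 19.1%, 12% and 20.7% of all genes. The counts were thus near those of all genes in basal and ML cells. Members lower by as much numbered 2, 5, 3 and 3, which is below the 14.2%, 16.9%, 9.39% and 18.1% of all genes in each group. Of the cochaperones and regulators, 2 of 36 were higher in the top part of basal cells, 3 of 37 in LP, 5 of 37 in ML and 3 of 37 in sorted basal cells, and 2, 4, 0 and 5 were lower.

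Several members recurred across the groups. Hspa1a was at 500.4 CPM in the bottom and 1769 in the top part of basal cells (3.54-fold, 3.18 to 3.94). It was at 105 and 1206 CPM in LP cells (11.5-fold, 9.15 to 14.6), 444.5 and 996.5 in ML cells (2.24-fold, 2.03 to 2.48) and 1342 and 4166 in sorted basal cells (3.11-fold, 2.90 to 3.33). Dnajb1 was 1.94-fold, 3.41-fold, 6.27-fold and 2.19-fold higher in the top part in the same order, its values in ML cells being 138 and 867 CPM. Hspa1a and Dnajb1 were past 1.5-fold in each of the 4 groups, and Hspa1b in each but ML cells. Hspa8 was past it in LP (1.63-fold) and ML cells (1.84-fold), and stood at 1.09-fold and 1.16-fold in basal and sorted basal cells. Hspb1 was 2.20-fold and 1.96-fold higher in LP and ML cells, and stood at 1.03-fold and 1.21-fold in the basal groups. Dnaja4 was past 1.5-fold in basal, ML and sorted basal cells, Dnajb9 and Dnajb4 in basal, LP and sorted basal cells, Dnajb4 at 2.11-fold, 2.50-fold and 1.63-fold, and Hspa2 in the 3 classes of the total epithelium. Dnajc30 was 2.66-fold higher in LP cells and 3.87-fold in sorted basal cells (1.85 to 8.84, on 10 and 31 counts), and Hspa4l, on 5 and 12 counts, 3.19-fold in basal cells (1.05 to 11.6). The members lower in the top part rested on few counts, such as Dnajc11 in LP cells (34 and 7 counts, at 0.303 of its bottom level, 0.113 to 0.693) and Dnajb5 in sorted basal cells (29 and 8 counts, at 0.344, 0.136 to 0.771), apart from Hsp90b1 in LP cells.

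The members of the organelles did not share a direction. In the endoplasmic reticulum Dnajb9 was 1.78-fold (1.54 to 2.07), 1.98-fold (1.56 to 2.51) and 1.65-fold (1.34 to 2.03) higher in the top part of basal, LP and sorted basal cells and stood at 0.956 in ML cells, while Dnajc3 stood at 0.736, 0.713, 0.885 and 0.703 of its bottom level in basal, LP, ML and sorted basal cells. In mitochondria Dnaja3 was 1.58-fold higher (1.05 to 2.39) in sorted basal cells and within 1.5-fold in the other groups. Hspd1 stood at 0.698, 0.947, 1.05 and 0.733 of its bottom level in the top part of basal, LP, ML and sorted basal cells, Hsp90b1 at 0.766, 0.622, 0.845 and 0.725, and Hspe1 at 0.771, 0.861, 0.821 and 1.02. Hsph1, inducible as it is, stood at 1.26, 1.36, 1.38 and 1.09, and each of these intervals included 1 (0.898 to 1.77 in basal cells). In the bottom parts alone, 24 of 53 members were lower by 1.5-fold or more in LP than in basal cells, against 35.1% of all genes, and 21 of them were shared with the comparison of all cells. In the same bottom parts the sorted library had 20 of 54 members higher and 16 lower than unsorted basal cells, with 17 and 13 shared. Over all genes these shares were 47.6% and 23.5%. The bottom parts were cut within each group, so their immediate-early shares still differed. Their medians were 3.06% in basal, 1.94% in LP and 4.11% in sorted basal cells.

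**Figure D5:**
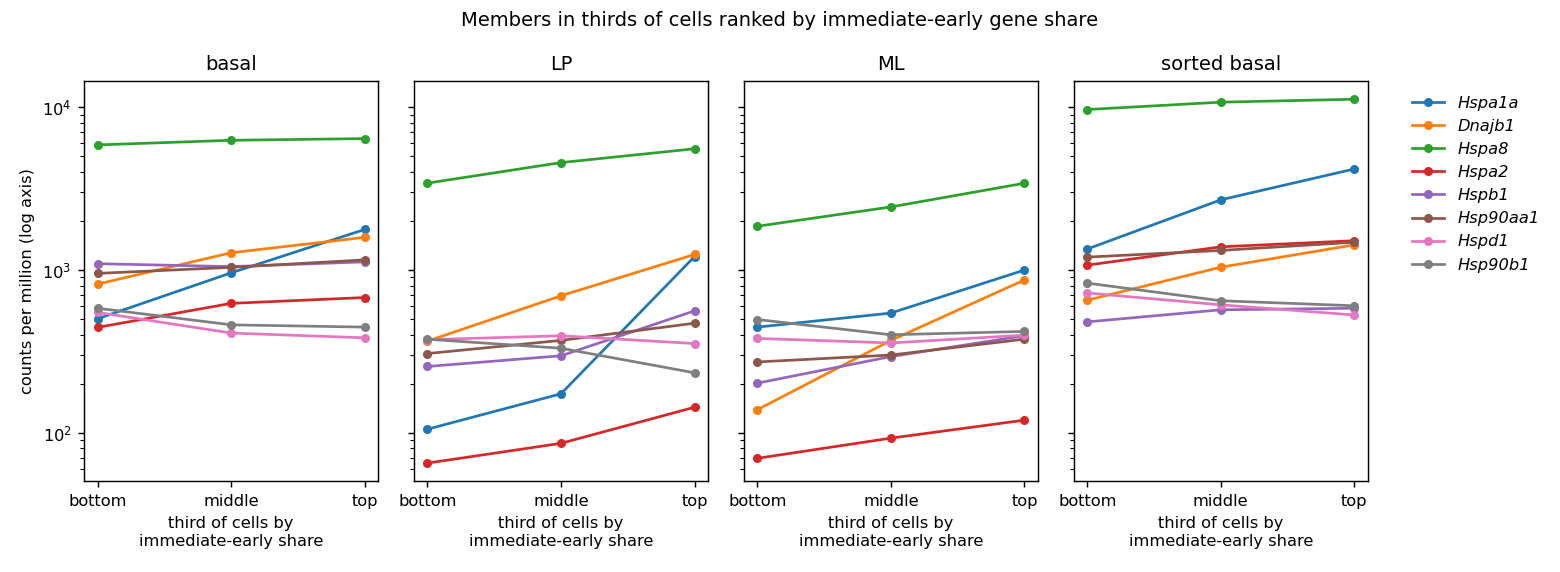
CPM (log axis) of 8 members in the bottom, middle and top part of the cells of each group by their share of immediate-early counts. The totals behind these CPM left out the immediate-early counts. Hspa1a and Dnajb1 climb in each of the 4 panels, Hspa1a from 105 to 1206 CPM in LP cells, while Hspd1 and Hsp90b1 do not.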

How the data were processed

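Cells of 2 libraries, 1 per group, were captured with the 10X Genomics Chromium 3′ kit, and the authors deposited whole-number counts of unique molecules per gene and cell, without normalization. The submitters' processing notes name Cell Ranger 1.2.1 and mm10. Such counting drops reads that match several genes, which lowers near-identical genes. The sorted basal library held 4771 cells and 2488704 counts (137 to 1946 per cell), the total epithelium library 3302 cells and 9227651 counts (802 to 12967 per cell). 3 counts in a whole library correspond to 1.21 and 0.325 CPM.

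Counts were summed over the cells of a class and scaled to counts per 1000000 (CPM) with Python 3.11.15, numpy 2.4.6 and scipy 1.17.1. For the parts of cells ranked by immediate-early share, the totals left out the immediate-early counts. Genes at 10 CPM or more in at least 1 of 2 groups were compared, and 1.5-fold was called by size alone. Levels carry exact Poisson intervals, shares of cells exact binomial (Clopper-Pearson) ones and ratios exact conditional binomial ones, all at 95% and for counting error only. Shares of cells were recomputed with cells thinned to 800 or 300 counts. No doublet caller was run; cells that met both the basal and the ML threshold were left out. The code was tested on simulated data.

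The members, the 41 cochaperones and regulators (40 matched), the 35 immediate-early genes and the marker lists were chosen with earlier results of these data known. Members named are a set list of 33 plus the 5 with the largest ratio in each direction per comparison. Gene positions and promoter windows came from RefSeq, and transcripts from GENCODE. Alternatives covered scaling, the low-level filter, the fold, class thresholds, depth, cells with genes of other lineages and the immediate-early ranking; leaving out LP cells with ML counts, ML cells without luminal keratins and cells with fibroblast counts was added after seeing the data.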

Additional observations from a re-analysis of the deposited data

Results flagged for a closer look

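Of the total epithelium cells, 97 met no class threshold and entered no comparison. In them 4 small heat shock protein genes were above their level in all 4 groups described. For Hspb3 this rests on 2 counts, and its interval overlaps that of 0 counts in LP cells. Hspb6 was at 350.1 CPM (56 counts, interval 264 to 455) against at most 19.6 CPM, Hspb2 at 68.76 CPM (11 counts, 34.3 to 123) against at most 5.28, Hspb7 at 62.51 CPM (10 counts, 30.0 to 115) against at most 5.63, and Hspb3 at 12.5 CPM (2 counts, 1.51 to 45.2) against 0 counts. The same cells held the skeletal muscle genes Acta1 at 30630 CPM, Ckm at 11170 CPM and Tnnt3 at 4951 CPM, which were at 6.41, 4.15 and 0.377 CPM in basal cells. The part of those genes' cells in the 4 levels was not tested.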

How the results depend on the processing

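No paired analysis was possible because each group is 1 library and the labels give no replicate numbers. Over the alternatives, 104 counts stayed within 1.5 times their value, 22 values moved further and no ratio past 1.5-fold, among 78 of single members, changed direction. Of the single ratios under alternatives, 868 stayed within their counting interval and 124 moved outside it. With a 2-fold limit, 1 of 54 members was higher and 12 lower in LP than in basal cells, against 12.61% and 21.75% of all genes. In ML cells 5 of 55 were higher than in basal cells, against 18.79%. Between ML and LP cells 7 of 52 were higher and 0 lower, against 16.51% and 10.88%. In the top immediate-early part of basal, LP, ML and sorted basal cells 5, 7, 2 and 4 were higher, given without a share of all genes. A higher limit gives fewer calls by construction. Median-of-ratios scaling gave 5 members higher in LP than in basal cells, against 21.13% of all genes. It gave 10 higher and 7 lower in ML than in LP cells (23.03% and 21.88%), and 23 lower in the sorted library (30.02%). The 3 members higher in LP than in basal cells became 5 as a mean over cells or without the deepest 5% of cells, and 6 in the lowest immediate-early part. Over all genes 21.07%, 20.52% and 22.58% were higher in these settings. With class thresholds of 20, 20 and 6, 11 of 53 members were higher in ML than in LP cells, against 23.65% of all genes. As a mean over cells 9 were higher in the top part of sorted basal cells, given without a share of all genes. The cause of these shifts was not tested. The median share of cells with a count over the named members was 10.3% in basal, 9.68% in LP, 9.46% in ML and 4.63% in sorted basal cells after thinning, and 22.73%, 26.37%, 29.66% and 6.938% without. Members under about 20 counts in a group, such as Hspb8 in LP and Dnajc12 in basal cells, are limited by depth.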

Other observations

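The classes differ in purity at their borders. Of the cells, 30 held 8 to 11 counts of the basal genes and 88 held 8 to 11 of the ML genes, and 83 LP cells held 5 to 9 counts of the ML genes. Of the ML cells, 10 had under 3 keratin counts, and 9 of those held 5 or more fibroblast counts. Of the 1280 basal cells of the total epithelium, 701 held 3 or more keratin counts, the number set for the LP class. Of the sorted basal cells, 3918 held 3 or more counts of the 3 basal genes and 424 held 3 or more keratin counts.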
